A study of Mus musculus with 2 samples.

Results

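Follistatin (Fst), the activin subunit gene Inhba, the inhibitory SMAD genes Smad6 and Smad7, the inhibitor of DNA binding genes Id1 to Id4 and the hepcidin gene Hamp were described in single cells of mouse pancreatic tumours. These 9 genes, of 32285 listed, were chosen by their measured levels in the same 2 libraries, so levels and ratios are descriptions and none was tested. EL1 mice, an FVB/N line, carry the SV40 large T antigen and firefly luciferase, each driven by the elastase I promoter, which is active in acinar cells. WTg mice carry both of these and in addition the Mettl3 open reading frame under the CAG promoter. The Mettl3 line was made in C57BL/6 mice and crossed with EL1, so strain background and transgene cannot be told apart. Tumours were taken at 6 weeks, each group had 1 library, and how many animals of which sex went into it is not stated. The difference between EL1 and WTg therefore has no replicate, and every interval given is a 95% interval for counting error only.

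Activins and bone morphogenetic proteins (BMPs) are secreted ligands that signal through receptor kinases to SMAD proteins. Follistatin binds activins outside the cell. SMAD6 and SMAD7 are induced by the same signal and dampen it, with SMAD7 acting on the activin, TGF-beta and BMP branches and SMAD6 mainly on the BMP branch. The ID proteins are classical BMP targets that bind E proteins and keep them from pairing with tissue-specific basic helix-loop-helix factors. Hepcidin, best known as a liver hormone that limits iron export through ferroportin, is another BMP and SMAD target.

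The filter kept 1113 cells of EL1 with a median of 26543 UMIs (unique molecular identifiers, 1 per captured transcript) and 905 cells of WTg with a median of 34836. No barcode sequence was shared between the kept cells. Values are CPM, the UMIs of a gene per 1000000 UMIs of all genes in the same cells, and 3 counts, taken as the floor, equal 0.0790 CPM for EL1 and 0.0909 CPM for WTg. Mettl3, the check of the labels, stood at 15.1 CPM for EL1 and 66.7 CPM for WTg. Of the 15 clusters, 1 and 3 were neuroendocrine-like, 0, 6 and 10 acinar-like, 5 red blood cell-like, 9 macrophage-like, 13 T or NK-like and 14 B-like, and the other 6 had too few raised markers for a name. In cluster 5, with a median of 2062 UMIs, red blood cell markers summed to 7027 CPM for EL1 and 1549 CPM for WTg. Acinar markers summed to more there, 89201 CPM and 84223 CPM, so its name does not mean that its barcodes were mostly red blood cells. In clusters 0, 1, 2, 4, 6, 8, 11 and 12, 1 library gave at least 96.7% of the cells, so cluster and library can hardly be separated there. The 9 genes, the pathway lists and the cell cycle genes took no part in clustering.

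All 9 genes were located in GRCm38, and the 8 whose position is given here lie on 6 chromosomes. Fst (ENSMUSG00000021765) spans 114452290 to 114458951 of chromosome 13, which also holds Inhba (ENSMUSG00000041324, 16011851 to 16031621) and Id4 (ENSMUSG00000021379, 48261228 to 48266026). Smad6 (ENSMUSG00000036867) lies at 63953076 to 64022059 of chromosome 9 and Id1 (ENSMUSG00000042745) at 152736251 to 152737410 of chromosome 2. Id2 (ENSMUSG00000020644) lies at 25093799 to 25097140 of chromosome 12 and Id3 (ENSMUSG00000007872) at 136143497 to 136145755 of chromosome 4. Hamp (ENSMUSG00000050440, 30942368 to 30944032 of chromosome 7) has a close copy, Hamp2 (ENSMUSG00000056978, 30922372 to 30924681). Fst, Inhba, Id4 and Hamp overlap genes on the opposite strand, and since the use of strand in counting is not given, reads of these partners cannot be told apart from theirs.

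The sequence before the start of transcription was taken from RefSeq (GRCm38.p6) for 250 bases before and 20 bases after the annotated start. Of the 9 genes, 6 had an entry that could be used (Inhba, Smad6, Id2, Id3, Id4 and Hamp). The windows of Hamp, Id2 and Id4 are shown because each holds the palindrome GGCGCC, a core of BMP-responsive SMAD sites, and that of Smad6 because it holds GTCTAGAC, a palindromic SMAD site. Capitals mark these letters.
Hamp, chr7:30944010-30944279, minus strand: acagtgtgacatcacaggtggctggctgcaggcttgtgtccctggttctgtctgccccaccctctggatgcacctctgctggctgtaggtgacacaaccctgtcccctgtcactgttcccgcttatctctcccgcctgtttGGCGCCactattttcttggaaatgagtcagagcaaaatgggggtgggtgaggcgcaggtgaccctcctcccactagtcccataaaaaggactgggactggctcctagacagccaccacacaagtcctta
Id2, chr12:25096073-25096342, minus strand: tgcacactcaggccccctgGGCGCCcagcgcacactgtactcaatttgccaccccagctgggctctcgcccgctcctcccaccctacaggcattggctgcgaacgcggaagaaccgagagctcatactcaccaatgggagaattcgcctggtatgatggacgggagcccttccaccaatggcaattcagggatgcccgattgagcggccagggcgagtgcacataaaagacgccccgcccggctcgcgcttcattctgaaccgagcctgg
Id4, chr13:48260866-48261135, plus strand: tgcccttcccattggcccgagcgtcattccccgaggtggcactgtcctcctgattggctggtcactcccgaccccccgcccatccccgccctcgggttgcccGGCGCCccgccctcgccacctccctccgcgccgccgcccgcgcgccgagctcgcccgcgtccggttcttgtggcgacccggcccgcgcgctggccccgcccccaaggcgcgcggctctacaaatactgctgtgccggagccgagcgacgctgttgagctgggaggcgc
Smad6, chr9:64022040-64022309, minus strand: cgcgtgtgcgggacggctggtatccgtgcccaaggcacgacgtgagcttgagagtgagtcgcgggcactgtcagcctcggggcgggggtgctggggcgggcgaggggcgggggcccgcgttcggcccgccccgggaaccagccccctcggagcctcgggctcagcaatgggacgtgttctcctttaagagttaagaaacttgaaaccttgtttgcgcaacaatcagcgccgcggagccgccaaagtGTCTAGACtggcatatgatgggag
GGCGCC began 109 bases before the start in Hamp, 231 in Id2 and 148 in Id4, and it was found in 10.4% of 32851 windows of the same length. GGCGCC and GTCTAGAC read the same on both strands. In Smad6, GTCTAGAC began 4 bases before the start, and 0.183% of windows held it. A further motif, the SMAD-binding sequence CAGACA on either strand, was found once, in Hamp, 202 bases before the start, and in 18.7% of all windows. The RefSeq start of Id2 lies inside the gene as annotated above. The matches did not overlap each other, and Inhba and Id3 held none of the 3 motifs.

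Over all kept cells, Fst and Hamp were lower in WTg by more than 2-fold, though Hamp only just, Id4 was lower by less, and the log2 ratios of Id1, Id2, Id3 and Smad7 lay between -0.21 and 0.06. EL1 held 1217 Fst UMIs, which is 32.1 CPM (30.3 to 33.9), and WTg held 389, which is 11.8 CPM (10.6 to 13.02). The log2 ratio of Fst, here always WTg over EL1, was -1.44 (-1.61 to -1.28). Hamp had 7358 UMIs, or 194 CPM (189 to 198), in EL1 against 3095 UMIs, or 93.8 CPM (90.5 to 97.1), in WTg, giving a log2 ratio of -1.05 (-1.11 to -0.99). Among the 13467 genes for which both libraries together held 50 UMIs or more, 4.59% were at least 2-fold lower in WTg and 6.85% at least 2-fold higher. Of the 8 genes described here with that many UMIs, 2 were at least 2-fold lower (Fst and Hamp) and 0 at least 2-fold higher. Hamp was no longer among them under TMM scaling (-0.93) or outside the stromal and blood classes (-0.99). Their median log2 ratio was -0.18, and that of all 13467 genes was -0.15. Inhba, with 47 UMIs, lay just outside the minimum and Smad6, with 50, just inside.

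**Figure D1:**
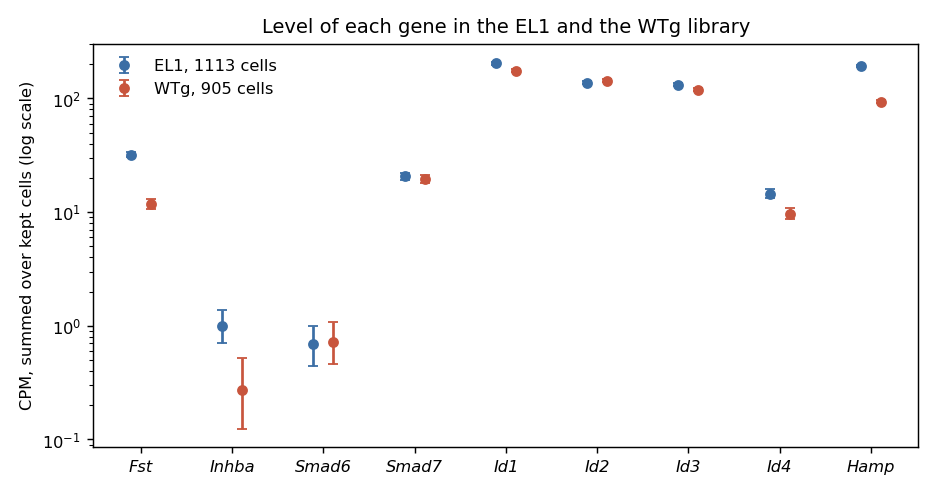
CPM of each gene summed over the kept cells of the EL1 (blue) and the WTg (red) library on a log axis, with exact 95% Poisson intervals. Fst stands at 32.1 CPM for EL1 and 11.8 CPM for WTg and Hamp at 194 CPM and 93.8 CPM, while Inhba and Smad6 lie near 1 CPM or under it in both.

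Of the Id genes, Id1 was the most abundant, with 203 CPM (199 to 208) for EL1 and 175 CPM (171 to 180) for WTg. Id3, which shares most of its functions with Id1, had 132 CPM (128 to 136) and 119 CPM (116 to 123). Id2, widely used by immune cells, had 138 CPM (134 to 141) and 143 CPM (139 to 147). Id4, which can oppose the other ID proteins, was the lowest, with 14.6 CPM (13.4 to 15.8) for EL1 and 9.66 CPM (8.63 to 10.8) for WTg. The log2 ratios were -0.21 (-0.26 to -0.16) for Id1, -0.14 (-0.21 to -0.08) for Id3 and -0.59 (-0.80 to -0.39) for Id4. That of Id2 was 0.06, with an interval that just held 0 and reached 0.11. Under TMM scaling, which moves the median of all genes by 0.11 on the log2 scale, all 4 kept their sign.

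The feedback genes Smad7 and Smad6 stood at different levels. EL1 held 782 Smad7 UMIs, which is 20.6 CPM (19.2 to 22.1), and WTg held 647, which is 19.6 CPM (18.1 to 21.2). Its log2 ratio was -0.07 (-0.22 to 0.08), a difference too small to detect at this depth, and under other scalings it took the other sign (0.04 with TMM and 0.15 with each cell weighted equally). Of Smad6, EL1 held 26 UMIs, which is 0.685 CPM (0.447 to 1.004), and WTg held 24, which is 0.727 CPM (0.466 to 1.08). The log2 ratio of Smad6 was 0.09 (-0.78 to 0.94). Inhba, which encodes the subunit that forms activin A, had 38 UMIs in EL1 and 9 in WTg, giving a log2 ratio of -1.88 (-3.11 to -0.80).

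Inhba and Smad6 came from very few cells. Of the 38 Inhba UMIs of EL1, 30 lay in 1 cell of cluster 7. That cell also held 72 Fst UMIs and 24 Smad7 UMIs, the most of any EL1 cell for all 3 genes, together with 17 UMIs of Col1a1, 64 of Col1a2 and 22 of Col3a1, collagens of fibroblasts. In WTg, the cell with most Fst (26 UMIs) and most Inhba (5 UMIs) was likewise 1 cell of cluster 7, with 46 UMIs of Col1a1, 71 of Col1a2 and 66 of Col3a1. In both libraries the cell richest in Fst was also the richest in Inhba and held collagen transcripts. Without its top cell, Fst stood at 30.2 CPM for EL1 and 11.004 CPM for WTg, and Inhba at 0.211 CPM and 0.121 CPM. The other 6 EL1 cells with an Inhba UMI included 4 of cluster 11, which held 6 UMIs.

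Smad6 was split between the libraries in another way. In EL1 its 26 UMIs lay in 25 cells, with at most 2 in any cell, and in WTg its 24 UMIs lay in 12 cells. The 10 WTg cells with a UMI of Cdh5, the adhesion gene of endothelium, of which 7 lay in cluster 7 and 3 in the macrophage-like cluster, held 14 of these 24 UMIs, all in cluster 7. Macrophage-like cells held 6 others. EL1 had 1 cell with a Cdh5 UMI, and it held 0 Smad6 UMIs. The same 10 WTg cells held 128 of the 647 Smad7 UMIs, 298 of the 5792 Id1 UMIs and 0 Fst, Hamp or Hamp2 UMIs. A single one of them, with 210 Cdh5 UMIs and 146 Pecam1 UMIs, held 78 Smad7, 169 Id1 and 7 Smad6 UMIs, the most of any WTg cell for these 3 genes. It also held 9 Col1a1 UMIs, and its total was 118137 UMIs. With all cells that held a UMI of Ptprc, Cdh5, Pecam1 or Col1a1 left out one by one, the log2 ratio of Smad6 was -2.37 and that of Smad7 -0.45. The summed endothelial markers stood at 6.01 CPM in EL1, with 7 of 8 genes detected, and at 71.1 CPM in WTg, with 8 of 8.

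The genes differed in how evenly cells shared their transcripts. In EL1, a UMI of Fst was found in 199 of 1113 cells and of Hamp in 364, against 693 for Id1, 711 for Id2 and 679 for Id3. In WTg, the numbers were 89 of 905 for Fst, 188 for Hamp, 547 for Id1, 601 for Id2 and 523 for Id3. Fst and Hamp were thus found in fewer cells. The median over cells with a UMI was 3 UMIs of Fst in EL1 and 2 in WTg, 6 and 5 of Hamp and 6 of Id1 in both. The 5% of cells with most of a gene (56 in EL1 and 46 in WTg) held 73.3% of Fst UMIs in EL1 and 87.1% in WTg, and 64.3% and 79.2% of Hamp UMIs. For Id1 the shares were 32.6% and 35.998%, and for Mettl3, driven by a ubiquitous promoter in WTg, 29.6% and 29.1%. To reach 50% of the UMIs took 21 cells for Fst and 35 for Hamp in EL1, and 14 and 18 in WTg. For Id1 it took 105 and 80 cells. Both measures run over all kept cells, so they also follow how many cells held a UMI. Of the WTg cells with a UMI, that was 14 of 89 for Fst and 80 of 547 for Id1, which are similar parts. In EL1 it was 21 of 199 for Fst and 105 of 693 for Id1. For Hamp it was 35 of 364 in EL1 and 18 of 188 in WTg. The highest count in 1 cell was 275 Hamp UMIs in EL1 and 237 in WTg.

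**Figure D2:**
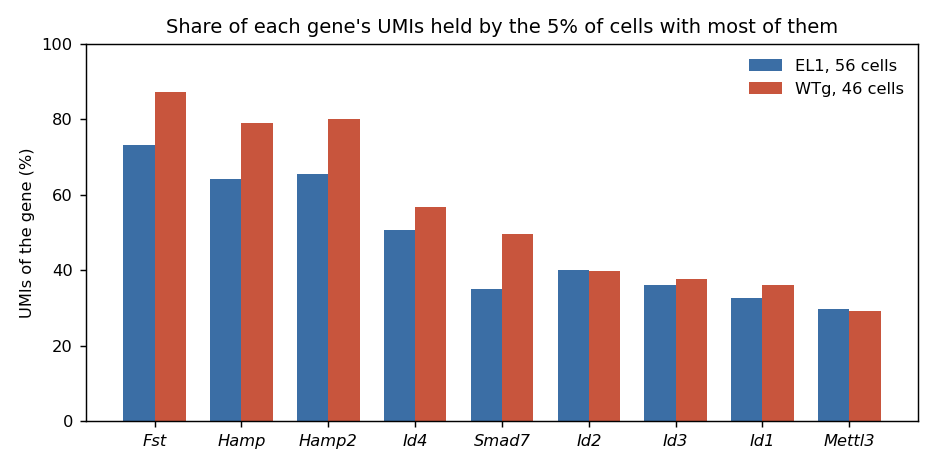
Percentage of each gene's UMIs held by the 5% of kept cells with most of them, for EL1 (blue, 56 cells) and WTg (red, 46 cells), with Hamp2 and Mettl3 for comparison. Fst, Hamp and Hamp2 lie between 64.3% and 87.1%, and Id1, Id2 and Id3 between 32.6% and 39.9%.

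Depth per cell differed between libraries and cell types, so shares of cells with a UMI were also taken after thinning each cell to 2000 UMIs, which left out 62 shallower cells of EL1 and 69 of WTg. Fst was then found in 4.85% (3.63 to 6.33) of the cells of EL1 and 2.15% (1.28 to 3.38) of those of WTg. Hamp was found in 13.2% (11.2 to 15.4) and 7.30% (5.63 to 9.27). Id1 was found in 25.1% (22.5 to 27.9) and 19.1% (16.5 to 21.97). With stromal, blood and mitotic clusters left out, Fst was found in 5.45% (4.06 to 7.14) and 2.71% (1.58 to 4.30). There, Hamp was found in 13.8% (11.6 to 16.2) and 9.24% (7.09 to 11.8). For Id1 the shares were 24.9% (22.1 to 27.9) and 20.4% (17.3 to 23.7). All 3 stayed lower in WTg, and their intervals overlapped, for Fst and Hamp only just. In neuroendocrine-like cells the shares were 9.19% and 6.15% for Fst, 19.1% and 19.5% for Hamp and 27.6% and 28.2% for Id1. Over all kept cells, Id2 was found in 18.1% and 19.9%, Id3 in 19.6% and 16.9%, Id4 in 2.47% and 2.03% and Smad7 in 4.66% and 5.50%. In the macrophage-like cells, whose unthinned medians were 6881.5 UMIs in EL1 and 18381 UMIs in WTg, 0 of 37 and 0 of 40 thinned cells had a UMI of Fst, Id4 or Hamp. That limits the share of cells with a UMI at this thinned depth to 9.49% in EL1 and 8.81% in WTg and says nothing of lower levels, since 3 of 40 and 1 of 47 unthinned cells had a Hamp UMI.

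By cluster, Fst was highest in the neuroendocrine-like clusters and in several unnamed EL1 clusters. Its highest level was 53.8 CPM (38.1 to 73.9) in the 26 EL1 cells of cluster 3, followed by 49.8 CPM (45.3 to 54.6) in cluster 2 and 37.5 CPM (33.3 to 42.1) in cluster 1. The first pair overlapped in their intervals, and cluster 1 lay below cluster 2. Cluster 2, an unnamed cluster of 236 EL1 cells led by 1810009J06Rik, Thbs1 and Col27a1, held 448 of the 1217 Fst UMIs, and Fst was itself among its 10 leading genes. Cluster 7 had 35.0 CPM, or 21.96 CPM without its collagen-bearing cell, and clusters 12 and 4 had 25.3 CPM and 21.3 CPM. Cluster 11, led by the gastric proton pump genes Atp4a and Atp4b, had 9 Fst UMIs in 2 of 77 cells, or 2.68 CPM (1.23 to 5.09). In WTg, cluster 3 held 60.7% of Fst UMIs at 30.6 CPM (26.8 to 34.7). The share of the leading cluster depended on the resolution of clustering. With clusters rebuilt at resolution 0.5 and 2, the WTg cluster with the highest CPM held 7.71% and 24.2% of Fst UMIs. The EL1 one held 5.92% and 14.4%, against 3.12% here. The mitotic cluster 8 of WTg had 10.4 CPM, and the acinar-like clusters 6 and 0 had 9.68 CPM (7.01 to 13.04) and 1.85 CPM (1.18 to 2.75). Macrophage-like cells had 0 Fst UMIs in both libraries.

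Hamp was highest in neuroendocrine-like cluster 1 in EL1 and in neuroendocrine-like cluster 3 in WTg. It had 381 CPM (368 to 396) in cluster 1, which held 39.5% of its EL1 UMIs, followed by 235 CPM (225 to 245) in cluster 2 and 215 CPM (199 to 231) in the mitotic cluster 12. The last of these was 135 CPM without 1 cell. Clusters 3, 7, 4 and 11 had 135, 111, 84.1 and 70.0 CPM in EL1. In WTg, cluster 3 led with 239 CPM (228 to 250) and 59.6% of the UMIs, and the acinar-like cluster 0 had 77.3 CPM (72.6 to 82.3). Acinar-like cluster 6, whose acinar markers summed to 229218 CPM against 162440 CPM in cluster 0, had 12.2 CPM (9.13 to 15.9). Macrophage-like cells had 4 Hamp UMIs in EL1 and 1 in WTg. The red blood cell-like class had 51 Hamp UMIs in 10 of 85 EL1 cells, 34 of them in 1 cell, and 1 UMI in 96 WTg cells. The acinar markers of that class summed to 89201 CPM for EL1 and 84223 CPM for WTg, and the part of other cells' RNA in its Hamp level was not tested.

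**Figure D3:**
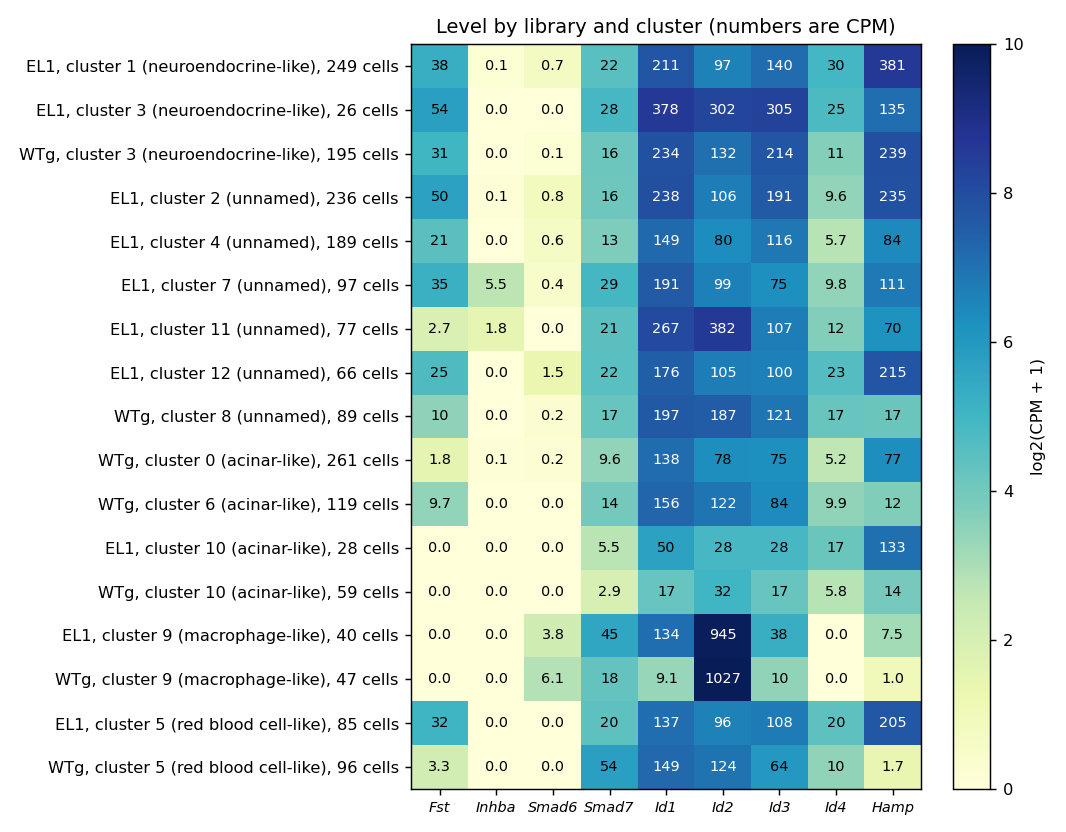
CPM of the 9 genes (columns) in each group of library and cluster with at least 20 cells (rows), with the value printed and colour on a log2(CPM + 1) scale. Fst reaches 53.8 CPM and 49.8 CPM in EL1 clusters 3 and 2 and Hamp 381 CPM in EL1 cluster 1, while Id2 reaches 945 CPM and 1027 CPM in macrophage-like cells, where Fst is at 0.

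Hamp2, the copy of Hamp, was described beside it because the pair can share reads. The annotated transcripts of Hamp (410 bases) and Hamp2 (437 bases) were identical at 94.6% of aligned bases, and 60 of 361 windows of 50 bases in Hamp occurred in Hamp2. No window of 90 bases was shared. The read length is not stated, so how reads were divided between the pair is uncertain. Hamp2 had 20.4 CPM for EL1 and 11.5 CPM for WTg, giving a log2 ratio of -0.83 (-1.01 to -0.65). Its order over clusters differed from that of Hamp, with the highest EL1 level, 85.5 CPM, in cluster 11, where Hamp had 70.0 CPM, and 23.9 CPM in cluster 1, where Hamp had 381 CPM.

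Id1 and Id3 were found in all clusters outside the stromal and blood classes and had similar orders over them. Id1 was highest in cluster 3, with 378 CPM (334 to 426) for EL1 and 234 CPM (223 to 245) for WTg, and Id3 likewise, with 305 CPM (265 to 348) and 214 CPM (204 to 225). In EL1, Id1 had 267 CPM in cluster 11, 238 CPM in cluster 2, 211 CPM in cluster 1 and 149 CPM in cluster 4. Cluster 11 was the exception in the pair, since Id3 had 107 CPM there, below its 191 CPM in cluster 2 and 140 CPM in cluster 1. In WTg, the acinar-like clusters 0 and 6 had 138 CPM and 156 CPM of Id1 and 75.5 CPM and 83.5 CPM of Id3. The shallow acinar-like cluster 10, with a median of 3434 UMIs, had 49.9 CPM of Id1 in EL1 and 17.3 CPM in WTg.

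Id2 had its own pattern. Macrophage-like cells had 945 CPM (864 to 1032) for EL1 and 1027 CPM (965 to 1092) for WTg, and held 9.61% and 21.5% of the Id2 UMIs of their libraries. Among other clusters it was highest in EL1 cluster 11, with 382 CPM (361 to 403), and in the EL1 cells of cluster 3, with 302 CPM (263 to 345). The mitotic cluster 8 of WTg had 187 CPM (176 to 200), and the acinar-like cluster 0 had 77.8 CPM (73.1 to 82.8). Outside the stromal and blood classes, Id2 had 126 CPM for EL1 and 116 CPM for WTg, so its log2 ratio went from 0.06 over all cells to -0.13 (-0.19 to -0.06). Macrophage-like cells made up 3.59% of EL1 cells and 5.19% of WTg cells. In sums over all cells, fewer cells of a type and less RNA per cell cannot be told apart.

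Id4 had its highest levels in the neuroendocrine-like and mitotic clusters. It had 29.5 CPM (25.8 to 33.6) in EL1 cluster 1, 25.5 CPM (15.1 to 40.3) in the EL1 cells of cluster 3 and 23.2 CPM (18.4 to 28.9) in the mitotic cluster 12, 3 values whose intervals overlapped. The other unnamed EL1 clusters had 5.72 to 11.9 CPM. In WTg, the mitotic cluster 8 was highest with 17.5 CPM (14.1 to 21.4), followed by 11.4 CPM (9.15 to 14.1) in cluster 3. The acinar-like class of WTg had 6.36 CPM (5.24 to 7.65) but, with 439 cells, held 35.4% of the Id4 UMIs, more than the neuroendocrine-like class (29.5%) or the mitotic clusters (28.5%). A single cell of acinar-like cluster 6 held 24 of them. No Id4 UMI was found in the 40 EL1 or the 47 WTg macrophage-like cells, which allows up to 6.95 CPM and 3.73 CPM.

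Smad7 had 12.6 to 28.8 CPM in the EL1 clusters outside the stromal and blood classes other than cluster 10, and 9.63 to 17.3 CPM in clusters 0, 3, 6 and 8 of WTg. Among groups of at least 20 cells, its highest level was in the joined lymphocyte-like clusters. WTg cluster 7, with 13 cells, was too small for a CPM, and 1 of its cells held 78 Smad7 UMIs among 118137 of all genes. The 20 WTg cells of the T or NK-like and B-like clusters had 52 Smad7 UMIs in 15 cells, or 425 CPM (318 to 558), and the 10 such cells of EL1 had 16 UMIs in 6 cells. After thinning, 12 of 20 lymphocyte-like WTg cells and 3 of 10 of EL1 had a Smad7 UMI, and 0 of both had one of Fst or Hamp.

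Within the neuroendocrine-like class (275 EL1 and 197 WTg cells), Fst was lower in WTg by less than over all cells. It had 38.9 CPM (34.8 to 43.4) for EL1 and 30.2 CPM (26.4 to 34.3) for WTg, giving a log2 ratio of -0.37 (-0.61 to -0.12), and 57 of the 324 EL1 UMIs lay in 1 cell, and without the top cell of each library the levels were 32.2 CPM and 27.5 CPM. Id4 had 29.2 CPM and 12.02 CPM, giving a log2 ratio of -1.28 (-1.64 to -0.93), and Hamp 361 CPM and 247 CPM, giving a log2 ratio of -0.55 (-0.63 to -0.46). Id3 went the other way, with 154 CPM and 219 CPM, giving a log2 ratio of 0.50 (0.40 to 0.61), and so did Id2 with 0.23 (0.10 to 0.36). Smad7 had a log2 ratio of -0.49 (-0.82 to -0.15) and Id1 one of 0.08 (-0.02 to 0.17).

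Cluster 1 gave 249 of the 275 EL1 cells of this class and cluster 3 gave 195 of the 197 WTg cells, so the class ratio mostly sets one cluster against another. Within cluster 3 alone, which held 26 EL1 cells, several signs differed from those of the class. Id3 had a log2 ratio of -0.51 (-0.72 to -0.30) there, Id2 -1.19 (-1.40 to -0.97) and Id1 -0.69 (-0.88 to -0.50), all lower in WTg. Hamp was higher in WTg within cluster 3, with 135 CPM (109 to 165) for EL1 and 239 CPM for WTg, giving a log2 ratio of 0.83 (0.53 to 1.14). Fst (-0.82, -1.31 to -0.28), Id4 (-1.16, -1.90 to -0.34) and Smad7 (-0.81, -1.49 to -0.05) kept the direction they had in the class.

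The mitotic clusters, 12 in EL1 and 8 in WTg, were unnamed clusters with Top2a, Mki67 or Ccna2 among their leading genes, and held 68 EL1 and 91 WTg cells. Hamp had 213 CPM (198 to 229) for EL1 and 18.5 CPM (14.99 to 22.6) for WTg, giving a log2 ratio of -3.52 (-3.85 to -3.22). A single EL1 cell held 275 of the 730 UMIs, and without the top cell of each library the levels were 134 CPM and 10.5 CPM. Id2 was higher in WTg, with 105 CPM (94.1 to 116) and 190 CPM (178 to 202), giving a log2 ratio of 0.86 (0.69 to 1.04). Fst had 25.4 CPM and 10.3 CPM, giving a log2 ratio of -1.30 (-1.82 to -0.79), near its value over all cells. The ratios of Id1 (0.16), Id3 (0.25) and Id4 (-0.46) were smaller.

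**Figure D4:**
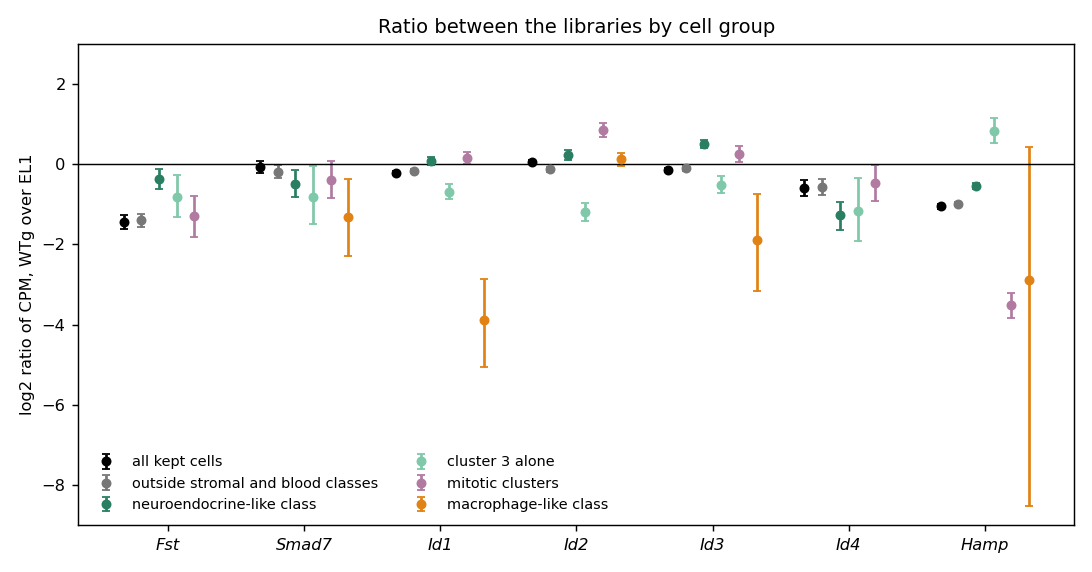
Log2 ratio of CPM, WTg over EL1, with exact 95% intervals for counting error, for 7 genes in 6 groups of cells, shown where both libraries had UMIs and at least 20 cells. The points for Fst and Id4 all lie below 0, while Id3 stands at 0.50 in the neuroendocrine-like class and at -0.51 in cluster 3 alone, and Hamp at -3.52 in the mitotic clusters and 0.83 in cluster 3.

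In macrophage-like cells, Id1 had 71 UMIs in 11 of 40 EL1 cells, or 134 CPM (104 to 169), and 9 UMIs in 5 of 47 WTg cells, or 9.10 CPM (4.16 to 17.3). The log2 ratio was -3.88 (-5.06 to -2.87), and 1 EL1 cell held 26 of the UMIs. Id3 had 20 UMIs and 10 UMIs there, giving a log2 ratio of -1.90 (-3.15 to -0.73), and Id2 did not follow, with a log2 ratio of 0.12 (-0.04 to 0.28). Markers of other cells moved in the same direction. In this cluster, the 7 neutrophil markers summed to 5658 CPM for EL1 and 1483 CPM for WTg, the red blood cell markers to 849 CPM and 8.09 CPM, the acinar markers to 2758 CPM and 1118 CPM and the neuroendocrine markers to 119 CPM and 25.3 CPM. Their part in the Id1 difference was not tested.

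Across the 17 groups of library and cluster with at least 20 cells, similarity of pattern was taken as Pearson's correlation on log2(CPM + 10), as a description only, since groups share libraries and depth. Of 11052 genes with at least 200 UMIs, Id1 was followed most closely by Id3 (0.91), Sec62 (0.91) and Ppat (0.91). Id3 was followed by Sec62 (0.92), Id1 (0.91) and Alg2 (0.91), so other genes came as close to each of the pair as its partner did. Fst was followed most closely by Spock2 (0.91), Mapre3 (0.89) and Cthrc1 (0.88), Hamp by Cltb (0.88), Emc10 (0.86) and Gucy2c (0.85), and Id4 by Myef2 (0.94), Tagap1 (0.91) and Ahcy (0.91). Id2 was followed by Txnrd1 (0.96), Cadm1 (0.96) and 1700017B05Rik (0.94), and Smad7 by Pias4 (0.91), Cep164 (0.89) and Gpkow (0.89). Within the set, Fst had 0.82 with Id3 and 0.73 with Hamp, and Id2 had -0.42 with Hamp.

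In single cells thinned to 10000 UMIs, outside the stromal and blood classes and the mitotic clusters but with cluster 7 included, Id1 and Id3 were often found together. An Id3 UMI was present in 64.2% of the EL1 cells with an Id1 UMI and in 36.1% of those without, over 854 cells. In WTg the shares were 60.5% and 31.5% over 570 cells. Spearman's correlation over these cells was 0.37 in EL1 and 0.36 in WTg, the highest of the pairs of genes. The pair Id1 and Id2 had 0.26 in both libraries. Within single clusters the Id1 and Id3 pair ranged from 0.13 in cluster 4 to 0.45 in cluster 11 in EL1, and from 0.23 in cluster 8 to 0.46 in cluster 6 in WTg. Fst and Hamp, alike over clusters, had 0.08 over EL1 cells, a weak value in sparse counts.

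The wider pathway was described from lists of 98 genes, again over all kept cells and with at least 50 UMIs. Among the ligands, 4 of 11 measured genes were at least 2-fold higher in WTg and 1 at least 2-fold lower, with a median log2 ratio of 0.70, beside 6.85% and 4.59% of all genes and a median of -0.15. The ligands' median falls on Gdf15, named here after its values were seen, which had 39.6% of its UMIs in the stromal and blood classes in EL1 and 76.9% in WTg. Macrophage markers summed to 425 CPM and 921 CPM over all kept cells, and their part in the ligand ratios was not tested. Inhbb, the other activin subunit gene, had 38 UMIs in EL1 and 393 in WTg, giving a log2 ratio of 3.57 (3.09 to 4.09), and 251 of the 393 lay in the 10 cells with a Cdh5 UMI. Bmp2 had 15.3 CPM and 32.0 CPM, giving a log2 ratio of 1.06, and 31.5% of its WTg UMIs lay in acinar-like cluster 6. Bmp7 went the other way, with 29.8 CPM and 14.3 CPM, giving a log2 ratio of -1.06 (-1.21 to -0.90). Gdf11 had a log2 ratio of 1.24 (0.85 to 1.63).

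Several other extracellular antagonists went opposite to Fst. Of 6 measured, 3 were at least 2-fold higher in WTg and 0 at least 2-fold lower, beside 6.85% and 4.59% of all genes. Sostdc1, a BMP antagonist, had 9.09 CPM for EL1 and 38.6 CPM for WTg, giving a log2 ratio of 2.09 (1.91 to 2.26), and its highest WTg level was 95.0 CPM in cluster 6. Nbl1, another BMP antagonist, had a log2 ratio of 2.24 (1.95 to 2.55), and Fstl1, a follistatin-like protein, one of 2.502 (2.01 to 3.03), with 57 of 197 WTg UMIs in the cells with a Cdh5 UMI. Lefty1, an antagonist of nodal, had -0.56 (-0.80 to -0.31).

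Of 16 receptors and co-receptors, 4 were at least 2-fold higher in WTg and 1 at least 2-fold lower, beside the same 6.85% and 4.59%, and their median log2 ratio was 0.05. The highest ratios were those of the endothelial co-receptor Eng (5.96), with 202 of its 217 WTg UMIs in the cells with a Cdh5 UMI, and the receptor Acvrl1 (3.20), with 100 of 184 there and 86 in macrophage-like cells. The BMP co-receptors Rgmb and Rgma had 1.60 and 1.48. The 5 signalling SMADs with enough UMIs lay between -0.12 for Smad3 and 0.07 for Smad2, with Smad4 at -0.10 and Smad5 at -0.07. Of the 8 other intracellular inhibitors, 1 passed 2-fold, the ubiquitin ligase Smurf1, with 1.25 (1.01 to 1.48), and Tgif2 (0.64), Nedd4l (0.34) and Tgif1 (-0.18) did not.

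Among 6 other SMAD targets, Atoh8, which like Hamp responds to BMP signals in the liver, had 3.32 CPM for EL1 and 0.818 CPM for WTg, giving a log2 ratio of -2.02 (-2.68 to -1.41). Ccn2, a matrix-associated growth factor gene, had 3 UMIs in EL1 and 54 in 11 WTg cells, giving a log2 ratio of 4.37 with an interval of 2.75 to 6.69. Cdkn2b, a cell cycle inhibitor, had -0.70. Of the 7 E proteins and tissue factors that ID proteins bind or oppose, Bhlha15, a factor of secretory acinar cells, was the 1 past 2-fold, with 43.9 CPM and 91.6 CPM and a log2 ratio of 1.06. The acinar factor Ptf1a had -0.75 (-0.86 to -0.64), Neurod1 0.70 and the E protein gene Tcf3 -0.39.

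None of the 6 measured iron genes and none of the 9 immediate early genes passed 2-fold, and their medians were -0.05 and -0.24. Slc40a1, which encodes ferroportin, the target of hepcidin, had 19.1 CPM and 26.8 CPM, with 66.5% of its EL1 UMIs and 85.6% of its WTg UMIs in the macrophage-like cluster. Hfe had a log2 ratio of 0.46 and Fth1 -0.16. Fos had -0.74, Junb -0.42, Atf3 -0.36 and Dusp1 0.49.

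**Figure D5:**
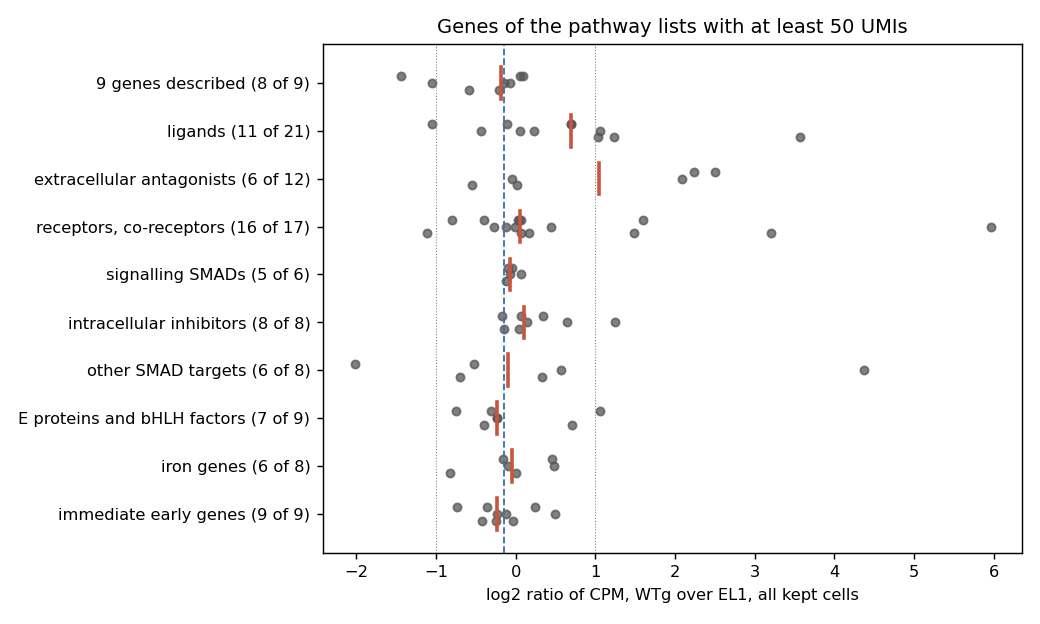
Log2 ratio of CPM, WTg over EL1, over all kept cells, for each gene with at least 50 UMIs (grey points, 1 row per list, with the number measured of the number listed), the median of each list (red bar), the median of all genes (dashed line, -0.15) and 2-fold differences (dotted lines). The ligands and extracellular antagonists have the highest medians, 0.70 and 1.05, and the signalling SMADs lie between -0.12 and 0.07.

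In the barcodes that the filter left out (508 of EL1 and 583 of WTg), Fst had 14.9 CPM and 2.15 CPM, Hamp 91.7 CPM and 11.8 CPM and Id1 71.9 CPM and 53.6 CPM. Near the mitochondrial limit, few barcodes and UMIs were at hand. The 15 kept EL1 barcodes with 15 to 20% mitochondrial UMIs held 42 Hamp UMIs, or 418 CPM (301 to 565). The 22 such barcodes of WTg held 8, or 57.1 CPM (24.6 to 112). Just outside, at 20 to 25%, 27 barcodes of EL1 held 11, or 101 CPM (50.6 to 181). For WTg, 29 barcodes held 5, or 24.1 CPM (7.81 to 56.2). Since 1 cell can hold 275 Hamp UMIs, these levels can rest on single barcodes.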

How the data were processed

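From 10x Chromium 3′ libraries the authors deposited counts, unnormalized numbers of UMIs for every gene in every barcode, written by Cell Ranger 6.0.2 (per the file headers). The submitters' processing notes name GRCm38, R 4.1 and Seurat 4.0.5. Strand, intronic counting and read length are not stated in the sources used here. Deposited dense tables of counts held 1471 of the 1621 EL1 barcodes and 1346 of the 1488 WTg barcodes, and lacked 1 and 3 kept cells. Over the 19645 and 19793 genes compared, 100% of values were equal, and these tables served as an alternative. The genes and lists were chosen with earlier results of these data known.

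Barcodes were kept from 500 detected genes and 1000 UMIs upwards if mitochondrial genes made up no more than 20% of UMIs, and doublets (Scrublet, 4 and 4 called) were kept in the main setting. Cells were clustered in scanpy 1.11.5 and leidenalg 0.10.2 (2000 variable genes, 30 components, 15 neighbours, resolution 1), without 206 genes (those described, the pathway lists, Mettl3, Plk1 and the cell cycle genes). A cluster was named from at least 3 markers raised at least 2-fold and present in at least 10% of its cells, more than for any other class, with 1 or more among its 10 leading genes. The stromal and blood classes were the macrophage-, lymphocyte- and red blood cell-like clusters. No cluster was named for endothelium or fibroblasts, and the few such cells lay in cluster 7.

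With 1 library per group there was no test. Sums have exact Poisson intervals, ratios exact conditional binomial intervals and shares exact Clopper-Pearson intervals. Groups under 20 cells gave no CPM, except the 15 kept EL1 barcodes with 15 to 20% mitochondrial UMIs. The lymphocyte-like clusters were joined. TMM factors came from edgeR 4.0.16. The genes named from each list are the 4 with the largest ratio in either direction, except 1 that is not reported here, and the genes alike in pattern are the 3 with the highest correlation. Coordinates are from GENCODE M21. Intervals and ratios were tried on simulated Poisson counts. These lack the clumping of UMIs in single cells seen here, so they check the calculation only.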

Additional observations from a re-analysis of the deposited data

Results flagged for a closer look

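Compared over the neuroendocrine-, acinar-, macrophage- and red blood cell-like classes and the mitotic clusters, the ratio of WTg over EL1 took different signs for Smad7, Id1 and Id3, each beyond the counting interval, and the difference between groups was not tested. Within cluster 3 alone, Hamp and Id2 also had the opposite sign (0.83 and -1.19) to that of the neuroendocrine-like class. Smad7 had a log2 ratio of 1.41 in red blood cell-like cells (5 UMIs in EL1 and 32 in WTg), -0.49 in neuroendocrine-like cells and -1.31 in macrophage-like cells. Id1 had 2.37 in acinar-like cells, 0.16 in the mitotic clusters and -3.88 in macrophage-like cells. The 36 acinar-like EL1 cells, 28 of them in the shallow cluster 10, held 14 Id1 UMIs. Outside this class lay the unnamed EL1 cluster 4, whose acinar markers summed to 178915 CPM, against 181029 CPM in the acinar-like class of WTg. Cluster 4 had 149 CPM of Id1, beside 138 CPM and 156 CPM in WTg clusters 0 and 6, so the ratio of 2.37 depends on which clusters were named. Id3 had 0.50 in neuroendocrine-like cells, 0.84 in acinar-like cells, 0.25 in the mitotic clusters, -1.90 in macrophage-like cells and -0.77 in red blood cell-like cells. Of its 22 UMIs in acinar-like EL1 cells, 17 lay in 1 cell, and without the top cell of each library the acinar-like levels were 10.3 CPM and 73.6 CPM.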

How the results depend on the processing

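The setting without the 10 cells richest in a gene was chosen after seeing the data. Of 110 alternative values of the ratios and counts, 85 stayed within the counting interval of the reported value (or, for counts, within 1.5 times). The other 25 moved, and the cause was not tested unless stated. For shares of a gene's UMIs in its highest cluster and of cells with a UMI, 59 alternative values moved and 31 stayed. The latter shares include other thinning depths. At other clustering settings, the highest cluster held 25.2% to 43.8% of Hamp UMIs in EL1 and 46.1% to 62.5% in WTg. At resolution 0.5, its WTg share went from 31.2% to 5.28% for Id1 and from 41.9% to 4.79% for Id3. Ratios near 0 changed sign, Smad7 under TMM (0.04) and with cells weighted equally, and Smad6 with cells weighted equally (-0.18). Smad6 and Id2 also did so without the 10 richest cells. Fst, Inhba, Id4 and Hamp were lower in WTg in every setting run for them. TMM scaling, which shifts all ratios by 0.11, gave -0.10 for Id1, 0.17 for Id2, -0.0305 for Id3 and -0.93 for Hamp, and the number of genes described that were at least 2-fold lower went from 2 to 1 because Hamp no longer passed. With each cell weighted equally, Smad7 was at 0.15, Id1 at -0.53, Id3 at -0.42, Id4 at -1.07 and Hamp at -1.30. Without the 10 richest cells of each library, Smad6 was at -2.70, Smad7 at -0.32, Id1 at -0.29, Id2 at -0.0255 and Hamp at -1.32. Since Smad6 UMIs lay in only 25 EL1 and 12 WTg cells, that setting takes out most of its WTg cells by construction. Outside the stromal and blood classes, clustering with the genes and lists kept in gave Smad6 -2.31, Smad7 -0.38, Id1 -0.23 and Id3 -0.19, and leaving cells out one by one gave Smad6 -2.37 and Smad7 -0.45. The last of these leaves out, by its construction, the 10 WTg cells with a Cdh5 UMI, which hold 14 of the 24 Smad6 UMIs. With at least 200 UMIs per gene, 466 genes were at least 2-fold higher and 327 lower, and with at least 1 UMI, 3166 and 2318. No paired analysis was possible because neither group has a second library. The single library per group limits every ratio, and the 47 UMIs of Inhba and 50 of Smad6 limit theirs further.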
